A study of Mus musculus with 12 samples.

Results

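The data concern 7 putative noncoding transcripts of mouse kidney out of the 42452 that carried reads in any library. They were picked by their row names because earlier results of the same data showed them low in injured wild-type (WT) kidney and less low in kidney lacking Smad3 (KO). The injury responses, their difference between genotypes and the genotype differences within each injury chose the members. Those values are therefore a description, and calls or p-values given for them are no test of the members. The description holds in part. All 7 were lower in both WT injury models, whereas in obstructed KO kidney 6 of the 7 were also below normal KO kidney, and in nephritic KO kidney the pair of libraries differed by up to 2.80-fold.

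The study measured RNA from kidneys of C57BL/6J mice in 6 groups of 2 libraries each. WT and Smad3-KO animals were each taken as normal, untreated kidney, after unilateral ureteral obstruction (UUO, left ureter tied, kidney harvested at day 5), and with anti-glomerular basement membrane glomerulonephritis (anti-GBM, sheep antibody at 60 μg per g, day 10). The anti-GBM mice had been immunised beforehand against sheep IgG with Freund's complete adjuvant, and the protocol describes antibody given at more than 1 time, so the interval after the last injection is uncertain. The same protocol names sham-operated mice as obstruction controls, while the control libraries are labelled normal. All groups share the strain; the construction of the Smad3 deletion, ages and the sex of each animal are not given, and mice of both sexes entered the obstruction model. Nothing in the labels states that the libraries of a group came from separate animals or pools, so the p-values measure the spread between these libraries, which may be technical.

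TGF-β is a secreted factor that drives matrix production by fibroblasts and injury responses of renal tubules. Its receptors phosphorylate Smad3, a transcription factor that enters the nucleus and acts on genes of fibrosis and inflammation, including noncoding RNAs. Ureteral obstruction dilates and atrophies tubules and leads to interstitial fibrosis, and anti-GBM antibody causes immune injury that starts in glomeruli. Long noncoding RNAs are transcripts without a protein product, many of which are expressed in few tissues. In whole-kidney RNA, fewer cells of a type and less RNA per cell cannot be told apart.

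Of the 7 transcripts, 3 matched mouse lncRNA database entries and 4 matched full-length cDNAs. ncRNA_aligned_2951 (1683 bases), ncRNA_aligned_2034 (2178 bases) and ncRNA_aligned_2213 (4176 bases) are the lncRNA matches. ncRNA_aligned_6386 (5515 bases, AK085582), ncRNA_aligned_1619 (6455 bases, AK089079) and ncRNA_aligned_3506 (3076 bases, AK165495) matched cDNAs described as noncoding, and ncRNA_aligned_2291 (1025 bases, AK002462) matched a cDNA with no description. ncRNA_aligned_1619 also carried an RFAM match to SNORD17, a small nucleolar RNA that guides chemical modification of ribosomal RNA, but 34 transcripts carried that same match. No role is known here for the other 6. The tables give lengths and matches but neither positions nor sequences, so none are printed.

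Libraries held 4595261 to 7342937 reads. In 3 libraries, WT UUO 1, KO UUO 1 and KO anti-GBM 1, reads covered less of the typical transcript than their number allowed. The ratio of observed to expected breadth was taken as the median over transcripts above 500 bases with 20 to 200 reads. It was 0.285 to 0.447 in these 3, against 0.636 to 0.911 in the other 9. The same 3 libraries differed in composition. A mitochondrial-length RNA, ncRNA_aligned_3554, took 1.95% to 3.68% of their reads against 16.9% to 35.7% in the other 9, and ncRNA_aligned_7824 took 15.7% to 36.4% against 1.70% to 6.90%. The part of these differences in the results was not tested. TMM scaling factors, which correct for such shares, ran from 0.733 to 1.64. Smad3 itself is not analysed here, so the knockout could not be checked in its own transcript. All 7 members had reads in all 12 libraries (66 to 80604 reads) and passed the low-count filter.

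In normal kidney the 7 transcripts spanned a wide range. On the authors' length-corrected scale (RPKM, reads scaled to transcript length and library total), ncRNA_aligned_2951 stood at 4579 ± 269 (SD, n = 2) in WT. ncRNA_aligned_6386 followed at 665 ± 71.8 (SD, n = 2), ncRNA_aligned_1619 at 192 ± 21.9 and ncRNA_aligned_3506 at 140 ± 9.89 RPKM. These 4 did not overlap their neighbours in that order. ncRNA_aligned_2213, at 91.3 ± 8.36 RPKM, and ncRNA_aligned_2291, at 88.9 ± 4.73, overlapped each other, and ncRNA_aligned_2034 was lowest at 24.1 ± 0.148. Together the 7 took 1.29% to 1.42% of the reads in normal WT libraries and 0.221% to 0.238% in obstructed WT libraries.

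Normal KO and normal WT kidney were compared in the fit over all 24816 tested transcripts; these libraries also served as the baseline of the responses that chose the members. None of the 7 passed (edgeR quasi-likelihood, adjusted p = 1 for each), where 0.0161% of all tested transcripts were called. By unadjusted p under 0.05, 1 of the 7 passed, as did 550 of the 24816 tested transcripts. By DESeq2 none passed, where it called 0.177%. The KO to WT ratio of mean CPM (reads scaled to library total and TMM factor) ran from 0.511 to 1.56. ncRNA_aligned_2213 lay at the lower end, with a log2 difference of -0.97 ± 0.39 (SE), and both of its KO libraries were below both WT libraries. ncRNA_aligned_6386 lay at the upper end, at 0.64 ± 0.40 (SE), with both KO libraries above both WT libraries. Without overlap, 17.6% of all tested transcripts were lower and 19.7% higher in normal KO. The other 5 had log2 differences between -0.21 and 0.05, with SEs of 0.39 to 0.53, and these SEs leave room for differences in either direction.

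**Figure D1:**
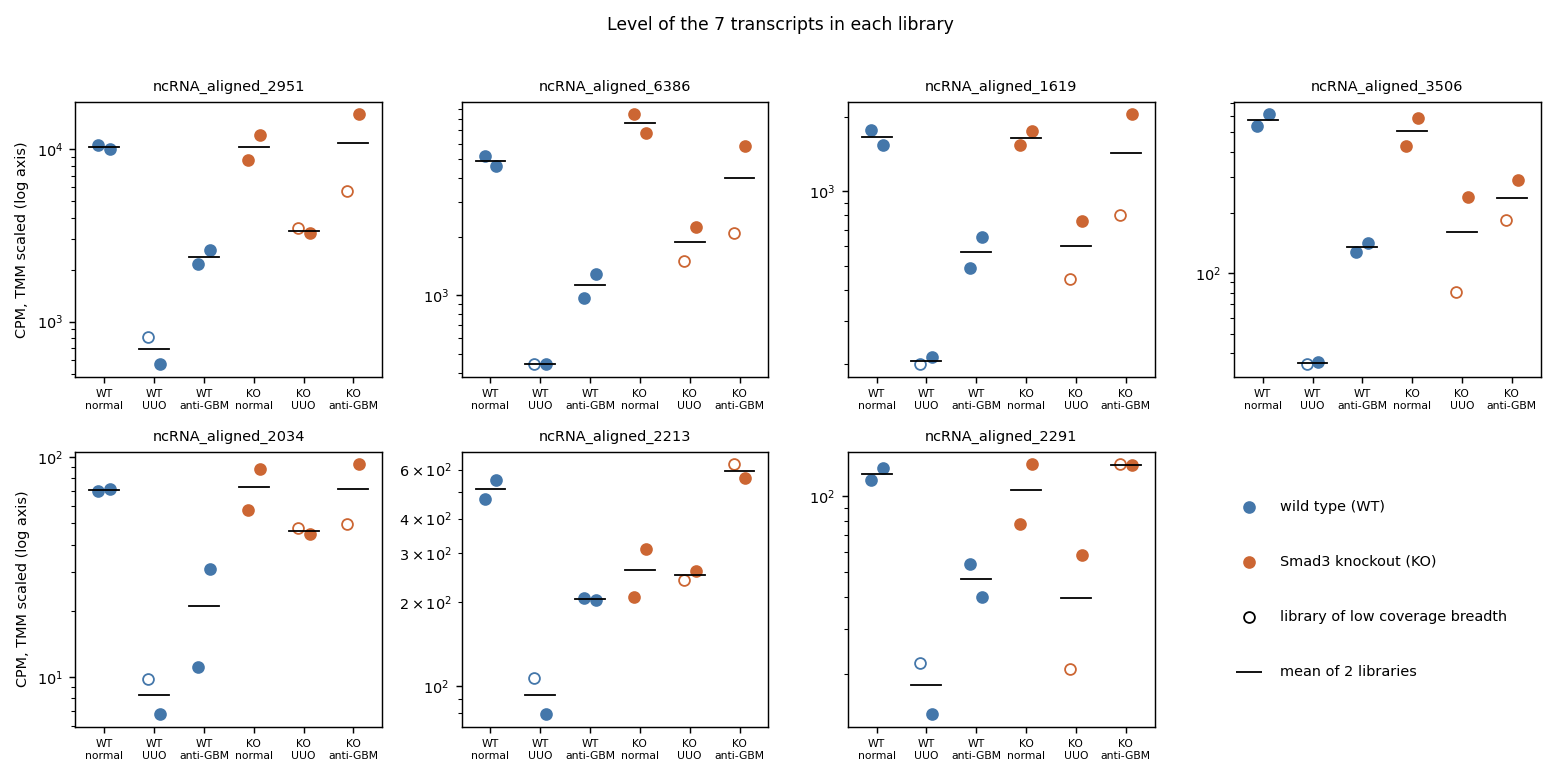
Level of each transcript in CPM (reads scaled to library total and TMM factor, log axis) in the 12 libraries, by group; blue is WT, orange is KO, open points mark the 3 libraries of low coverage breadth and bars the mean of 2 libraries. For every transcript both WT UUO points and both WT anti-GBM points lie below both WT normal points, and the 2 KO anti-GBM points of ncRNA_aligned_2951, ncRNA_aligned_6386 and ncRNA_aligned_1619 lie far apart.

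ncRNA_aligned_2951 was the most abundant member. Its level in WT was 10592 and 10032 CPM in normal libraries, 816 and 565 in UUO, and 2142 and 2614 in anti-GBM. In KO it was 8655 and 11979.7 CPM in normal libraries, 3480 and 3244 in UUO, and 5671 and 15874 in anti-GBM. The WT groups did not overlap and ranked in the order normal, anti-GBM, UUO, while the KO anti-GBM libraries lay on either side of the KO normal ones. Obstruction took the mean to 6.70% of normal in WT and 32.6% in KO, log2 responses of -3.90 ± 0.44 (SE) and -1.62 ± 0.40. The anti-GBM mean was 23.1% of normal in WT and 104% in KO, but the KO figure averages 55.0% and 154%. Without KO anti-GBM 1, a library of low breadth, the KO log2 response was 0.62, and without KO anti-GBM 2 it was -0.86, so its direction turned with the library left out. The median of all tested transcripts moved as well, from -0.372 with both libraries to -0.245 without KO anti-GBM 1 and -1.23 without KO anti-GBM 2. The response of ncRNA_aligned_2951 lay above that median in each case.

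ncRNA_aligned_6386, a cDNA match, was the only member whose mean in normal KO was well above normal WT. WT levels were 5206 and 4598 CPM in normal libraries, 442 and 445 in UUO, and 962 and 1289.8 in anti-GBM. KO levels were 8472 and 6772 CPM in normal libraries, 1503 and 2239 in UUO, and 2096 and 5858 in anti-GBM. Both injuries were below normal without overlap in both genotypes. KO UUO was at 24.6% of KO normal, a log2 response of -2.03 ± 0.42 (SE), and WT UUO at 9.04%, a response of -3.47 ± 0.44. In anti-GBM the KO mean was 52.2% of normal and the WT mean 23.0%. The KO anti-GBM log2 response was -0.38 without KO anti-GBM 1 and -1.86 without KO anti-GBM 2, against -0.94 with both. The corresponding medians of all tested transcripts were -0.245, -1.23 and -0.372.

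ncRNA_aligned_1619, the longest member, had nearly the same mean in normal WT and normal KO. The WT libraries gave 1766 and 1547 CPM in normal, 200.2 and 215 in UUO, and 489 and 652 in anti-GBM. The KO libraries gave 1534 and 1749.9 CPM in normal, 442 and 763 in UUO, and 801 and 2050.1 in anti-GBM. KO UUO lay above WT UUO but overlapped WT anti-GBM. Its log2 responses to obstruction were -3.00 ± 0.45 (SE) in WT and -1.45 ± 0.43 in KO, and those to anti-GBM were -1.54 ± 0.43 and -0.20 ± 0.42. Without KO anti-GBM 1 the last of these was 0.32, and without KO anti-GBM 2 it was -1.04. The medians of all tested transcripts in these fits were -0.245 and -1.23.

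ncRNA_aligned_3506 had the lowest level relative to normal after obstruction in WT, 6.20%. It stood at 540.7 and 614.9 CPM in normal WT libraries, 35.3 and 36.4 in UUO, and 128 and 141 in anti-GBM. In KO it stood at 427 and 593 CPM in normal libraries, 80.5 and 239.9 in UUO, and 183 and 291 in anti-GBM. The KO UUO libraries differed 2.98-fold, and the lower value came from KO UUO 1, a library of low breadth. Both KO injuries were below KO normal without overlap, at 31.4% for UUO and 46.5% for anti-GBM. Of the 7 it had the smallest genotype difference in the anti-GBM response, a log2 difference of 1.00 ± 0.65 (SE).

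ncRNA_aligned_2034 was the least abundant. In WT it had 69.7 and 71.1 CPM in normal libraries, 9.83 and 6.80 in UUO, and 11.1 and 30.9 in anti-GBM. In KO it had 57.7 and 87.9 CPM in normal libraries, 47.6 and 44.8 in UUO, and 49.7 and 92.8 in anti-GBM. The KO UUO libraries lay below the KO normal libraries but above all 4 injured WT libraries. Its KO to WT ratio after obstruction, 5.56, was the highest of the 7. The log2 response to obstruction was -3.08 ± 0.58 (SE) in WT and -0.65 ± 0.53 in KO.

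ncRNA_aligned_2213 was the only member lower in normal KO than in normal WT without overlap, as were 17.6% of tested transcripts. It was also the only member higher in KO anti-GBM than in KO normal without overlap, as were 11.7%. WT levels were 471 and 551 CPM in normal libraries, 107 and 79.5 in UUO, and 207 and 205 in anti-GBM. KO levels were 209.7 and 312 CPM in normal libraries, 241 and 259 in UUO, and 628 and 559 in anti-GBM. KO UUO lay within the range of KO normal, and both KO anti-GBM libraries were above every other library, normal WT included. The KO mean was 95.8% of normal after obstruction and 228% in anti-GBM, log2 responses of -0.06 ± 0.39 (SE) and 1.19 ± 0.39. In WT the corresponding responses were -2.46 ± 0.41 and -1.31 ± 0.40. Scaled by library size alone, the KO response to obstruction was 0.59, where the median of all tested transcripts was 0.58.

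ncRNA_aligned_2291, the shortest member, had WT levels of 116 and 128 CPM in normal libraries, 22.0 and 13.9 in UUO, and 53.9 and 40.0 in anti-GBM. KO levels were 77.8 and 133 CPM in normal libraries, 20.8 and 58.6 in UUO, and 133 and 132 in anti-GBM. KO UUO 1 lay between the WT UUO libraries, so this was the only member whose obstructed groups overlapped between genotypes. KO UUO 1 is a library of low breadth. Against KO normal, the KO log2 responses were -1.41 ± 0.51 (SE) in UUO and 0.33 ± 0.50 in anti-GBM.

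Across the members, obstruction in WT gave the strongest responses. All 7 fell (edgeR, adjusted p under 0.05), where 2.42% of tested transcripts were called and 1.74% were called lower. The count is a description, because this response chose the members. Log2 responses ran from -4.01 to -2.46 with a median of -3.08, against a median of 0.49 over all tested transcripts. Without WT normal 2 the responses ran from -3.94 to -2.34, where the median of all tested transcripts was 0.54. Without WT UUO 2 they ran from -4.03 to -2.26, where that median was 0. Both UUO libraries were below both normal libraries for 7 of 7, as for 23.5% of tested transcripts.

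In WT anti-GBM kidney the same 7 had log2 responses of -2.12 to -1.31, with a median of -1.74 against 0.30 over all tested transcripts. None of the 7 was called by edgeR, where 0.0201% of transcripts were called. All 7 had an unadjusted p under 0.05, as did 1627 of the 24816 tested transcripts. DESeq2 called 3, where it called 0.669% of transcripts. Leaving out KO UUO 1 gave a median response of -1.70. Leaving out KO UUO 2, KO anti-GBM 1 or KO anti-GBM 2 gave -1.74 each. Without the 3 libraries of low breadth, none of which is in this contrast but all of which enter the shared estimate of spread, 7 of 7 were called, where 6.53% of transcripts were called. Groups did not overlap for 7 of 7, as for 21.9% of tested transcripts. WT UUO lay below WT anti-GBM without overlap for 7 of 7, against 20.6%. The models share the normal libraries, and they differ in day and in treatment.

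In KO kidney after obstruction, 6 of 7 members were below normal without overlap, as were 19.3% of tested transcripts; the exception was ncRNA_aligned_2213. Log2 responses ran from -2.03 to -0.06, with a median of -1.45 against 0.00 over all tested transcripts. Scaled by library size alone, the median of all transcripts moved up by 0.58 and 5 of the 7 responses were below 0, while the members' median relative to that of all transcripts stayed close, at -1.48 against -1.45. None of the 7 was called by edgeR, where 0.0121% were called. An unadjusted p under 0.05 was found for 5, and for 1483 of the 24816 tested transcripts. DESeq2 called 1, where it called 0.496%. Without the 3 libraries of low breadth edgeR called 2, ncRNA_aligned_2951 and ncRNA_aligned_6386, where 0.851% were called, and with no filter on low counts it also called 2. The share of all transcripts called with no filter is not given here for this response. Without KO UUO 2 the members' log2 responses ran from -2.66 to -0.11, where the median of all tested transcripts was -0.476. Without KO UUO 1 they ran from -1.79 to -0.04, where that median was 0.005. Without KO anti-GBM 1 they ran from -2.03 to -0.06, where that median was 0.002. In KO anti-GBM kidney, 2 of 7 were below normal without overlap (ncRNA_aligned_6386 and ncRNA_aligned_3506, against 28.6% of transcripts) and 1 was above (ncRNA_aligned_2213, against 11.7%). The other 4 overlapped normal. Responses ran from -1.11 to 1.19. None was called by edgeR, where 0.0524% were called, or by DESeq2, where 0.427% were. An unadjusted p under 0.05 was found for 3, and for 2171 of the 24816 tested transcripts. KO UUO lay below KO anti-GBM without overlap for 5 of 7, against 11.4%.

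**Figure D2:**
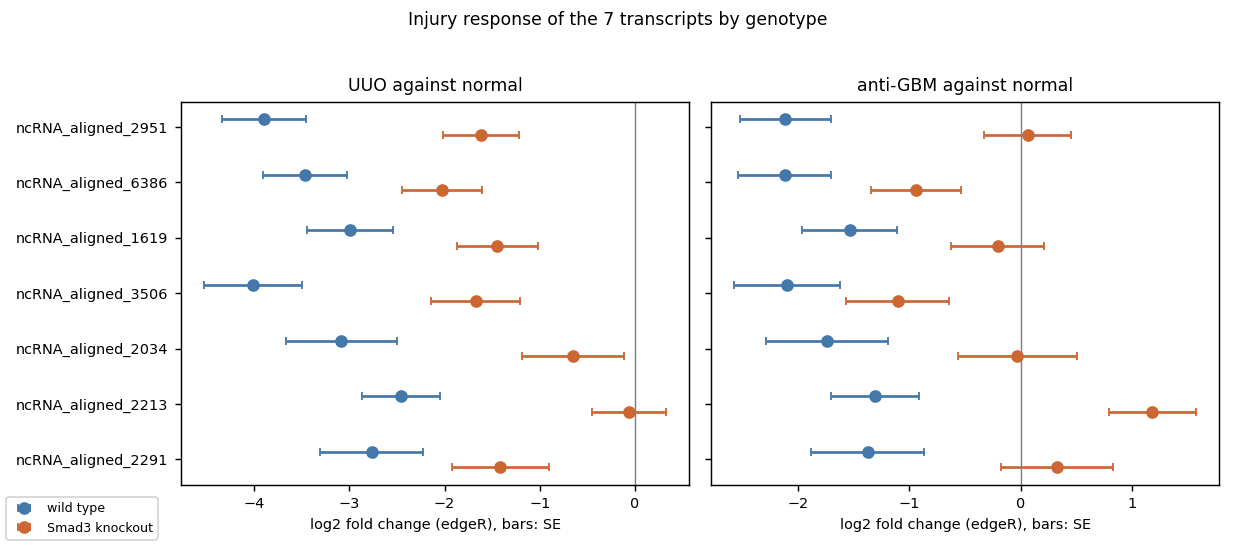
Log2 response to UUO (left) and anti-GBM (right) against normal kidney of the same genotype for each transcript, WT in blue and KO in orange, with bars of 1 SE from the edgeR fit over all 12 libraries. Every WT response is below 0, every KO response lies to the right of the WT one, and ncRNA_aligned_2213 in KO anti-GBM is furthest to the right at 1.19.

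The genotype difference in the response, KO minus WT on the log2 scale, was above 0 for all 7 in both models. For obstruction it ran from 1.35 to 2.43, with a median of 2.28 against -0.25 over all tested transcripts. For anti-GBM it ran from 1.00 to 2.50, with a median of 1.71 against -0.71. None of the 7 passed for either model with all 12 libraries in edgeR, where 0.0604% of transcripts were called for obstruction and 0.0161% for anti-GBM. In each model 6 of 7 had an unadjusted p under 0.05. Of the 24816 tested transcripts, 1397 had one for obstruction and 2481 for anti-GBM. DESeq2 called 1 member in each model, where it called 0.52% and 0.508% of transcripts. These counts are a description, because the genotype difference in the response chose the members.

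Without WT UUO 1, KO UUO 1 and KO anti-GBM 1, the obstruction difference was called for 7 of 7 (1.68 to 2.88), where 1.67% of transcripts were called. The anti-GBM difference was then called for 6 of 7, all but ncRNA_aligned_3506, where 4.31% were called. In that fit WT UUO, KO UUO and KO anti-GBM each hold 1 library, which is assumed to vary like the other groups. In contrast, without KO UUO 2 the members' median obstruction difference was 1.35 and the lowest member was at 0.42. The median of all tested transcripts was then -0.87, against -0.25 with all 12 libraries. Relative to it the members' median was 2.22, against 2.535. Without KO UUO 1 the members' median was 2.21. Without WT anti-GBM 1 the median anti-GBM difference was 1.12. Without KO anti-GBM 2 the anti-GBM difference was 0.26 for ncRNA_aligned_6386, 0.50 for ncRNA_aligned_1619, 0.62 for ncRNA_aligned_3506 and 1.25 for ncRNA_aligned_2951. The median of all tested transcripts was then -1.75, against -0.71 with all 12 libraries. Relative to it the members' median was 2.95, against 2.42.

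Within obstructed kidney, mean levels in KO were 2.21 to 5.56 times those in WT. Both KO libraries were above both WT libraries for 6 of 7, as for 11.3% of tested transcripts. None was called by edgeR, where 0.00806% were called. All 7 had an unadjusted p under 0.05, as did 1510 of the 24816 tested transcripts. DESeq2 called 4, where it called 0.447%. Without the 3 libraries of low breadth edgeR called 7 of 7, where 0.476% were called. Without KO UUO 2 the members' median log2 difference was 1.37 in place of 2.08, and the lowest member was at 0.21. The median of all tested transcripts was then -0.63 in place of -0.16. Without KO UUO 1 the members' median was 2.22. Leaving out either KO anti-GBM library left the members' median at 2.08. Within anti-GBM kidney, KO means were 1.76 to 4.53 times those in WT, without overlap for 7 of 7, as for 13.4%. None was called by edgeR, where 0.0201% were called. An unadjusted p under 0.05 was found for 6, and for 3661 of the 24816 tested transcripts. DESeq2 called 3, where it called 1.75%. The counts within each injury are a description, because these genotype differences chose the members. Without the 3 libraries of low breadth the log2 differences ran from 1.10 to 2.73. Without KO anti-GBM 2 the lowest log2 difference was 0.44 in place of 0.82, and without KO anti-GBM 1 it was 1.11. The median of all tested transcripts was -1.54 and -0.565 in these fits, against -0.615 with all 12 libraries. Leaving out either KO UUO library or either WT UUO library left the lowest member difference at 0.82.

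**Figure D3:**
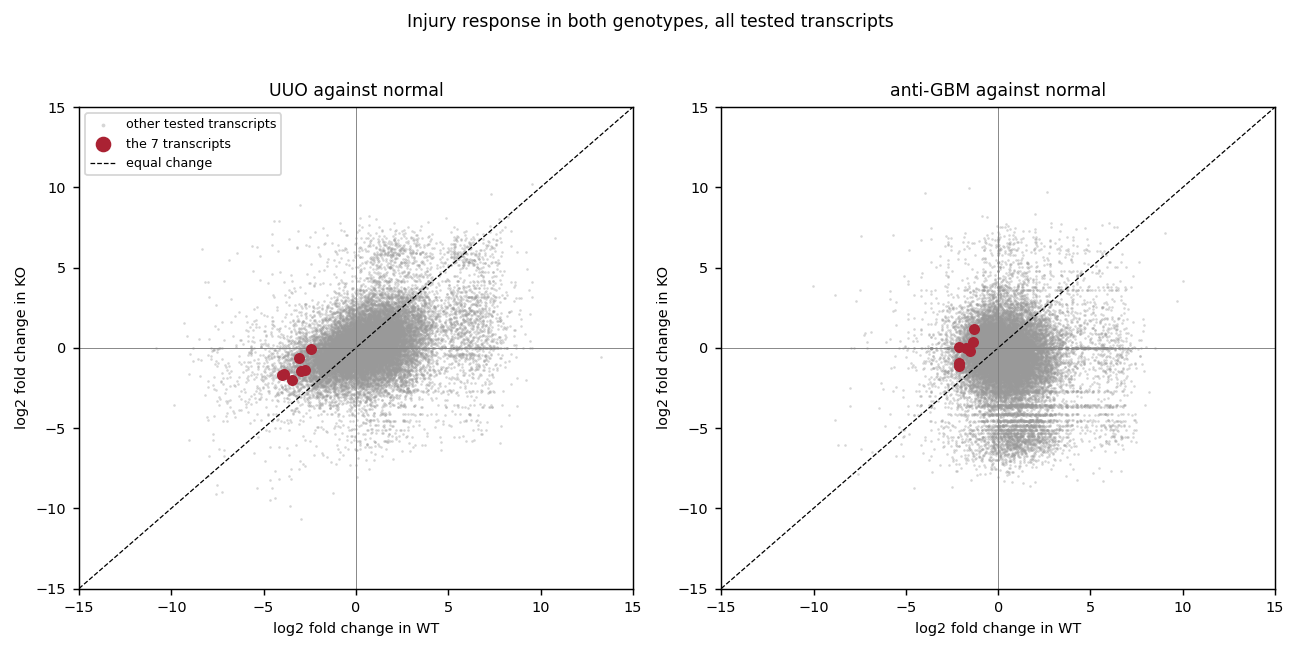
Log2 response in KO (vertical) against WT (horizontal) for UUO (left) and anti-GBM (right); grey points are the other tested transcripts, red points the 7 members and the dashed line equal responses. All 7 members lie left of 0 in WT and above the line in both panels; for UUO all 7 are also below 0 in KO, and for anti-GBM 4 are.

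How much of each transcript was read adds a measure that the choice of members did not use. ncRNA_aligned_2034 stood apart. Its reads covered 13.9% to 25.0% of its length in the 12 libraries, while tested transcripts of 0.5 to 2 times its depth and over 500 bases had median coverages of 41.1% to 92.4% in the same libraries. A lower coverage was found in 1.0% to 6.71% of them. At the fewest, 302 of its bases were covered, so its level rests on a minor part of the transcript. The other 6 members were covered over most of their length: 89.9% to 99.9% for ncRNA_aligned_2951, 81.8% to 97.1% for ncRNA_aligned_6386, and 75.5% to 98.7% for ncRNA_aligned_1619. The remaining 3 ranged from 58.4% to 97.9% for ncRNA_aligned_3506, 67.4% to 95.7% for ncRNA_aligned_2213 and 65.2% to 91.9% for ncRNA_aligned_2291.

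**Figure D4:**
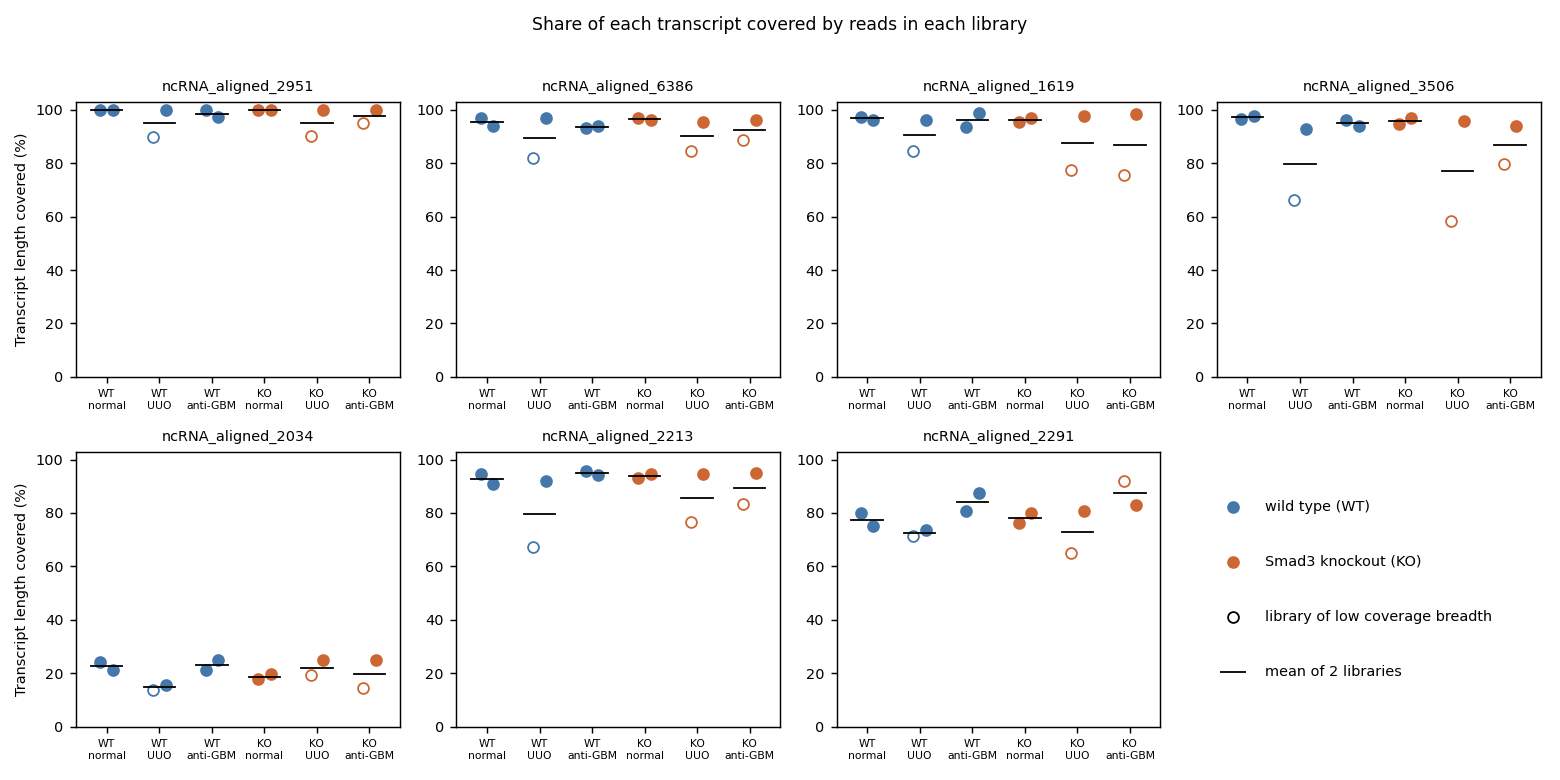
Share of each transcript's length covered by reads (percent) in the 12 libraries by group, WT blue and KO orange, open points the 3 libraries of low breadth, bars the mean of 2 libraries. ncRNA_aligned_2034 stays between 13.9% and 25.0% everywhere, and in 5 of the other 6 the open points are the lowest, with ncRNA_aligned_2291 the exception.

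A neighbouring row, ncRNA_aligned_2033 (2177 bases), matched the same lncRNA entry as ncRNA_aligned_2034 and is no member. The counts are of uniquely mapped reads, per the file headers. Whether unique refers to the genome or to the set of transcripts is not recorded, so reads of the pair cannot be told apart with certainty. Reads covered 6.02% to 34.8% of ncRNA_aligned_2033, and a link between the shared entry and the low coverage of the pair was not tested. ncRNA_aligned_2033 had 17.5 and 24.7 CPM in normal WT, 0.596 and 2.02 in WT UUO, and 6.10 and 5.01 in WT anti-GBM. In KO it had 9.14 and 23.8 CPM in normal, 7.66 and 14.9 in UUO, and 15.5 and 15.0 in anti-GBM. The WT UUO values rest on 4 and 24 reads, near the floor. As for ncRNA_aligned_2034, both injured WT groups lay below normal WT and both injured KO groups above their WT counterparts, without overlap. Of all tested transcripts, 23.5% (UUO) and 21.9% (anti-GBM) lay below normal WT in this way. KO lay above WT for 11.3% in UUO and 13.4% in anti-GBM.

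The members' profiles resembled each other, which their choice in part fixed. Over the 21 pairs of members, Pearson's r of log2 CPM in the 12 libraries ran from 0.729 (ncRNA_aligned_6386 with ncRNA_aligned_2213) to 0.973 (ncRNA_aligned_2951 with ncRNA_aligned_1619), with a median of 0.896. The points share libraries and their depth, so these values are descriptive. Among 4308 other transcripts with a mean of 10 CPM or more, the closest to ncRNA_aligned_2951 was ncRNA_aligned_2583 (r = 0.992). The closest were ncRNA_aligned_416 to ncRNA_aligned_6386 (r = 0.966), ncRNA_predict_20698 to ncRNA_aligned_1619 (r = 0.981) and ncRNA_predict_1305 to ncRNA_aligned_3506 (r = 0.981). For ncRNA_aligned_2034 it was ncRNA_aligned_7430 (r = 0.962), for ncRNA_aligned_2213 ncRNA_aligned_4801 (r = 0.974), a putative conserved noncoding region, and for ncRNA_aligned_2291 ncRNA_aligned_5049 (r = 0.979). Closest to the mean profile of the 7 were ncRNA_aligned_3388 (r = 0.986), ncRNA_aligned_416 (r = 0.983), ncRNA_aligned_4999, ncRNA_aligned_6208 and ncRNA_aligned_2583 (r = 0.981 each).

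Few markers of kidney cell types are in these tables, and their part in the members' values was not tested. Of 10 kidney epithelial microRNA precursors, 2 were matched, mir-200b (ncRNA_aligned_7267, 8523 bases) and mir-135a (ncRNA_aligned_6360, 4267 bases). The levels given are those of these long transcripts as a whole, not of the precursors alone. Their summed level was 608 to 635.5 CPM in normal WT, 93.8 to 147 in WT UUO and 159 to 186 in WT anti-GBM, and 270.4 to 274.5 in normal KO, 209.8 to 287 in KO UUO and 454 to 766 in KO anti-GBM. This sum was carried by mir-135a, at 589 ± 14.7, 74.9 ± 33.0 and 123 ± 14.6 CPM (SD, n = 2) in WT normal, UUO and anti-GBM, and 247 ± 17.6, 207 ± 39.4 and 594 ± 221 in KO. edgeR called it lower in WT UUO and higher in the anti-GBM interaction. mir-200b did not follow the members, with levels of 33.2 ± 4.59, 45.3 ± 4.38 and 48.9 ± 4.46 CPM in WT and 25.9 ± 14.8, 41.4 ± 15.3 and 15.6 ± 1.31 in KO, and was not called. The 1 juxtaglomerular term, a renin mRNA element (ncRNA_aligned_2307), was matched, at 144 to 220.4 CPM in normal WT, 83.6 to 126 in WT UUO and 5.12 to 20.6 in WT anti-GBM, and at 131 to 522 in normal KO, 311 to 379.6 in KO UUO and 562 to 1238 in KO anti-GBM. It was called higher in KO than in WT anti-GBM. Of the 4 myeloid terms 2 were matched, and their sum was 3.42 to 3.47 CPM in normal WT, 46.6 to 58.6 in WT UUO, 11.4 to 11.5 in WT anti-GBM and 0.609 to 16.6 in the 6 KO libraries. The Spi1 element (ncRNA_aligned_3717), of a myeloid transcription factor, was called higher in WT UUO. Of the 6 mesenchymal terms 2 were matched, with sums of 321 to 329 CPM in normal WT, 537 to 869 in WT UUO, 373 to 574 in WT anti-GBM, 452 to 475.5 in normal KO, 388 to 698.5 in KO UUO and 1264 to 1369.9 in KO anti-GBM. No mesenchymal transcript was called by edgeR in any of the 9 contrasts, where 0.00806% to 2.42% of all tested transcripts were called. Neither of 2 erythroid microRNAs was matched. Of 19 noncoding terms tied to TGF-β and renal fibrosis, 7 were matched by 8 transcripts, among them let-7, Neat1 and elements of Ctgf and vimentin. Their sums were 492 to 559 CPM in normal WT, 977 to 1552 in WT UUO and 1357 to 2047 in WT anti-GBM. In KO they were 563 to 756 CPM in normal, 824 to 973 in UUO and 1684 to 1953 in anti-GBM. None of the 8 was called by edgeR in any of the 9 contrasts, against the same shares of 0.00806% to 2.42%. The lack of calls does not show that these levels were unchanged.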

How the data were processed

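RNA over 150 bases was sequenced after ribosomal depletion, per the labels' protocols. The aligner was Bowtie (version 0.12.7) and the genome build mm9, as listed per the submitters' processing notes; transcript assembly, read assignment and strand settings are not given in the sources used here, so antisense reads cannot be told apart. The deposited tables give uniquely mapped read counts, RPKM, coverage in percent and mean depth (coverage signal) per transcript, per the file headers. Transcripts absent from a library's table were set to 0 reads.

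Counts were fitted with edgeR 4.0.16 (R 4.3.3; TMM scaling, low-count filter by group, robust quasi-likelihood test, 1 mean for each of 6 groups, Benjamini-Hochberg adjustment over 24816 transcripts) and, as an alternative, DESeq2 1.42.0. Calls use an adjusted p under 0.05. The fit was also run on simulated counts with changes in WT UUO only. That run bears on no other contrast and not on the libraries of low breadth, and its outcome is not given here. Replicate numbers follow accession order. Named besides the members are the closest profile to each and the 5 closest to their mean (log2 CPM, prior count 2). Members and lists were chosen with earlier results of these data known.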

Additional observations from a re-analysis of the deposited data

Results flagged for a closer look

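ncRNA_aligned_2213 was marked because libraries of the groups compared lay in opposite directions. In normal kidney both of its KO libraries were below both WT libraries, while in UUO and in anti-GBM kidney both KO libraries were above both WT libraries. Of all tested transcripts, 17.6% lay below WT in normal KO in this way, and 11.3% (UUO) and 13.4% (anti-GBM) lay above WT. The share with both directions at once is not given here. The KO to WT log2 difference of ncRNA_aligned_2213 was 2.39 higher in UUO than in normal kidney and 2.50 higher in anti-GBM than in normal kidney. Against normal kidney of the same genotype, anti-GBM libraries were higher in KO and lower in WT without overlap, the same difference of 2.50. Taken singly, 11.7% of tested transcripts were higher in KO and 21.9% lower in WT in this way. The edgeR interaction over all 12 libraries called none of these differences of ncRNA_aligned_2213. Since the transcript was chosen on this response, the difference was not tested further.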

How the results depend on the processing

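Of 18 alternatives, 12 left out 1 library each. In all 18, all 7 members kept log2 responses below 0 in WT for both models and genotype differences above 0. After obstruction in KO, all 7 were below 0 in 14 of 18. Library size alone moved the median of all transcripts by 1.06 in WT UUO, and the members' median relative to it was -3.58 against -3.57 with TMM.

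Transcripts called in WT UUO (600) became 1023 by library size alone, 1377 with DESeq2, 1046 with no filter and 2685 without the 3 libraries of low breadth. For WT anti-GBM (5) the counts were 12 with DESeq2 size factors, 78 by library size, 166 with DESeq2, 123 with no filter, 1 without ncRNA_aligned_3554 and ncRNA_aligned_7824, and 1620 without the 3 libraries; members called went from 0 to 1 with size factors, 3 with DESeq2, 3 with no filter and 7 without the 3 libraries. For the obstruction interaction (15) they were 28 by library size, 129 with DESeq2, 133 with no filter and 414 without the 3 libraries, and members called went from 0 to 1, 1 and 7 under the last 3. For the anti-GBM interaction (4) they were 13 with size factors, 32 by library size, 126 with DESeq2, 78 with no filter, 1 without the 2 abundant transcripts and 1070 without the 3 libraries, and members called went from 0 to 1 with DESeq2, 1 with no filter and 6 without the 3 libraries. Leaving out each library in turn gave 135 to 1213 transcripts and 6 to 7 members for WT UUO, and 0 to 63 and 0 to 3 for WT anti-GBM. For the interactions it gave 3 to 44 and 0 to 1 (obstruction) and 1 to 30 and 0 to 0 (anti-GBM). The causes were not tested.

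With 2 libraries per group, the libraries of a group differed by 1.01-fold to 2.98-fold over the members, which limits the precision. No paired analysis was possible because the labels give no replicate numbers shared between groups.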
